A study of Macaca mulatta with 8 samples.

Results

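The genes described here encode the co-receptors that present lipopolysaccharide (LPS) to Toll-like receptor 4 (TLR4) and the adaptors, kinases and ubiquitin ligase that carry its signal: CD14, LY96, MYD88, TIRAP, TICAM1, TICAM2, IRAK2, IRAK3, IRAK4 and TRAF6. They were taken by gene symbol from the count tables, in which all 10 have a row among 35432 genes. Each was counted in 8 libraries of cultured microglia, the resident macrophages of the brain, from 4 adult rhesus macaques.

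CD14 and LY96 (also called MD-2) hold the lipid on TLR4, and the receptor then uses a pair of adaptor routes. At the cell surface TIRAP brings in MYD88, around which IRAK4 and IRAK2 assemble and pass the signal to TRAF6, whose ubiquitin chains activate NF-kB and MAP kinases. From endosomes TICAM2 (TRAM) brings in TICAM1 (TRIF), which leads to IRF3 and type I interferon, while IRAK3 (IRAK-M) is known as a brake on the MYD88 route in monocytes and macrophages. These genes are known in macrophages for setting how strongly, and through which route, a cell answers bacterial LPS.

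The microglia came from frontal subcortical white matter and were kept for 8 days with serum and M-CSF, a growth factor of macrophages. At day 7 they received 10 µg/mL ultrapure LPS, an agonist of TLR4 named uLPS in the labels, for 16 h. In the uLPS+MRS2578 group the cells were first incubated for 1 h with 5 µM MRS2578, an antagonist of the purinergic receptor P2RY6, and in the uLPS group they were not. The study describes MRS2578 as selective but not fully specific. MRS2578 was dissolved in DMSO, and the labels do not say whether the uLPS group received this solvent. The study's methods state that assays with MRS2578 had DMSO controls. The donors were R07110 (male, 13 years), R12016 (male, 9 years), R02046 (female, 19 years) and R14143 (female, 6 years), and each gave 1 library per condition. All 8 libraries received uLPS, and no library without uLPS or with MRS2578 alone was analysed here, so a response to uLPS itself cannot be read from these values.

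Total counts ran from 9231109 to 32790348 per library. Markers of macrophages were abundant, with CSF1R between 1006 and 1470 CPM (counts scaled to a common library total) and CD68 between 716 and 1288. Of the markers of microglia, TREM2 was at 11.7 to 39.6 CPM and P2RY12 at 5.70 to 13.3 CPM. CX3CR1 was at 0.05 to 2.21 CPM and TMEM119 at 0 to 0.32 CPM. The summed CPM of 5 fibroblast and mural cell markers ranged from 80.7 to 984 with uLPS and from 188 to 397 with uLPS+MRS2578, that of 5 astrocyte markers from 45.9 to 150 and from 57.6 to 128, and that of 5 lymphocyte markers was at most 0.52 in any library. In R14143 the fibroblast and mural sum was 984 CPM with uLPS and 365 with uLPS+MRS2578, and in the other donors it was higher in the library labelled uLPS+MRS2578. PECAM1 (82.5 to 213 CPM) and VWF (41.7 to 121 CPM) made up nearly all of the endothelial list, whose CLDN5 was at 0 in 5 libraries, MBP (58.9 to 74.8 CPM) nearly all of the oligodendrocyte list, and the granulocyte markers S100A12 and CEACAM8 were at 0 in all 8. The part of these cells in the results was not tested, and in bulk RNA fewer cells of a type and less RNA per cell cannot be told apart.

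The condition of R02046 is uncertain. A supplementary gene table lists CPM values by donor and condition, and each of its 8 columns is proportional to the counts of 1 library. In 6 columns the condition is that of the deposited label, and in the 2 columns of R02046 the conditions are the other way round. Results are therefore given with the deposited labels, without R02046 (3 donors) and with its conditions exchanged. Levels per donor below follow the deposited labels, and "the library labelled" marks those of R02046.

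All 10 genes were read in every library, with the lowest count being 73 for TRAF6 and the highest 220224 for CD14. CPM values are scaled by TMM, which corrects library totals for differences in composition. Genes are compared with each other only per kilobase (kb) of exon, using the RefSeq gene models of Mmul_10. On that scale CD14 had the highest mean of the 10 over the 8 libraries, 4667 CPM per kb, and its rank was 9 in each condition among the 10601 filtered genes with a RefSeq length. It was followed by IRAK2 (46.0), MYD88 (30.8), LY96 (18.0), TICAM2 (15.3), TICAM1 (14.5), IRAK3 (12.8), TRAF6 (10.2), IRAK4 (6.71) and TIRAP (2.15 CPM per kb), with TLR4 at 43.3.

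CD14 stood above every other gene of the group in all 8 libraries, and per kb it exceeded LY96 188- to 334-fold within a library and TLR4 97.3- to 123-fold. The ranges over the libraries also did not overlap between MYD88 and LY96, nor between IRAK4 and TIRAP. From LY96 through TICAM2, TICAM1, IRAK3 and TRAF6 to IRAK4 each gene overlapped the next, as did IRAK2, TLR4 and MYD88. Within a library TLR4 was still above MYD88 in all 8, by 1.07- to 2.00-fold. The other overlapping genes were above the next in 4 to 7 libraries, so the order of those neighbours is not resolved. The order also depends on the gene models: per kb of coding length LY96 went from place 5 to place 9 and IRAK3 from place 8 to place 5 among the 11 genes, because the RefSeq model of LY96 holds 483 exon bases of which 480 code, and that of IRAK3 holds 10034 of which 1788 code. CD14 stayed first, with 28.1 to 35.6 times the level of TLR4 by coding length.

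**Figure D1:**
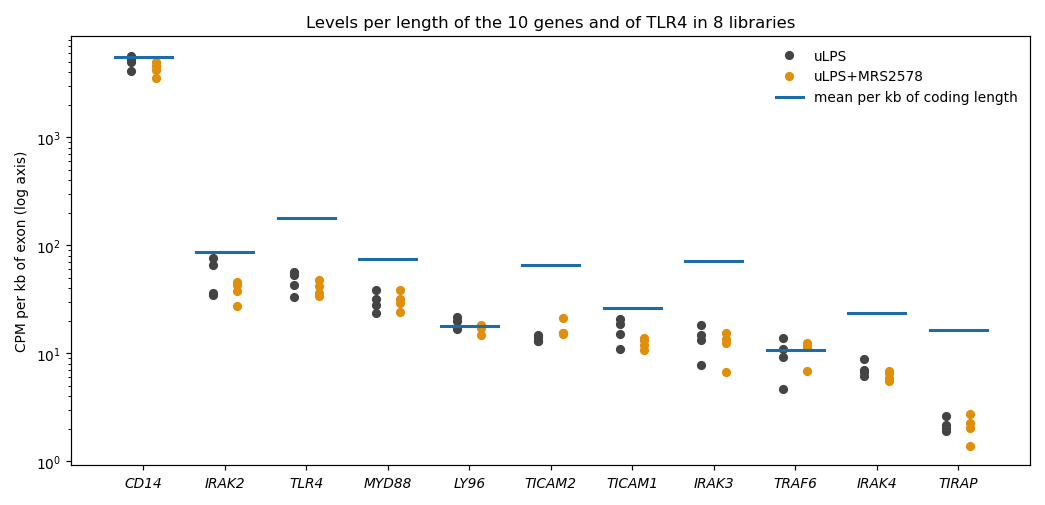
Levels of the 10 genes and TLR4 in CPM per kb of exon, on a log axis, with 1 point per library (dark: uLPS, orange: uLPS+MRS2578). Blue lines give the mean over the 8 libraries per kb of coding length. CD14 lies between 3547 and 5689 CPM per kb, while the other 9 genes lie between 1.40 and 77.0.

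Over the 4 donors, R02046 included, the spread was largest in TRAF6 and smallest in IRAK4. Taking the mean log2 CPM of a donor's libraries, the SD over the 4 donors was 0.52 for TRAF6, 0.39 for IRAK3, 0.39 for IRAK2, 0.29 for TIRAP and 0.27 for TICAM1. It was between 0.13 and 0.19 for the remaining 5, which include CD14 (0.14) and LY96 (0.15). The highest and the lowest donor thus lay 1.17 log2 units apart for TRAF6 and 0.30 for CD14. For TRAF6 the lowest donor was R02046, with 7.78 and 11.5 CPM in its libraries against 15.3 to 22.9 in those of the other donors. The place of TRAF6 thus rests largely on R02046, and the SDs were not computed without that donor.

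No gene of the 10 passed an adjusted p of 0.05 between uLPS+MRS2578 and uLPS under any of the 3 treatments of R02046 (edgeR quasi-likelihood test, blocked by donor). Across all genes tested the share called was 0.0% with the deposited labels, 0.0% without R02046 and 0.618% with R02046 exchanged, so a count of 0 of 10 is near the background in each case. At an unadjusted p under 0.05 the numbers were 2 of 10 with the deposited labels beside 5.14% of all genes, 3 of 10 beside 13.6% without R02046, and 4 of 10 beside 16.4% with R02046 exchanged. The median log2 fold change of the 10 was -0.16, -0.21 and -0.20 in that order, and that of all tested genes was -0.0097, -0.0035 and 0.0012. Of the 10, 7 were lower with MRS2578 as labelled, 7 without R02046 and 8 with R02046 exchanged, beside 52.1%, 50.5% and 49.8% of all genes.

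The donors differed in direction. With uLPS+MRS2578, 8 of the 10 genes were lower in R07110 and 8 in R12016, 4 in R14143 and 2 in R02046 as labelled. The share of all tested genes that were lower was 49.7%, 50.2%, 53.2% and 50.0% in the same donors. The median difference of the 10 was -0.27 in R07110, -0.41 in R12016, 0.030 in R14143 and 0.20 in R02046 as labelled, in log2 CPM. CD14, TICAM1, IRAK2 and IRAK4 were lower in all of R07110, R12016 and R14143, as were 19.8% of all tested genes, and these 4 were higher in R02046 as labelled, a pattern held by 13.2% of all genes. The summed CPM of the 11 microglia and macrophage markers with a row moved the same way. CSF1R, CD68 and ITGAM had the highest medians in this sum (1235, 1136 and 785 CPM), and differences of single markers are not given here. With MRS2578 the sum went from 4886 to 4223 in R07110, from 5149 to 4342 in R12016 and from 4295 to 3947 in R14143. In R02046 as labelled it went from 4393 to 5048. In log2 units these differences were -0.21, -0.25, -0.12 and 0.20, and their part in the differences of the 4 genes was not tested. TICAM2 was higher in all 4 donors, as were 6.43% of all genes, and no gene of the 10 was lower in all 4, beside 6.49% of all genes.

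**Figure D2:**
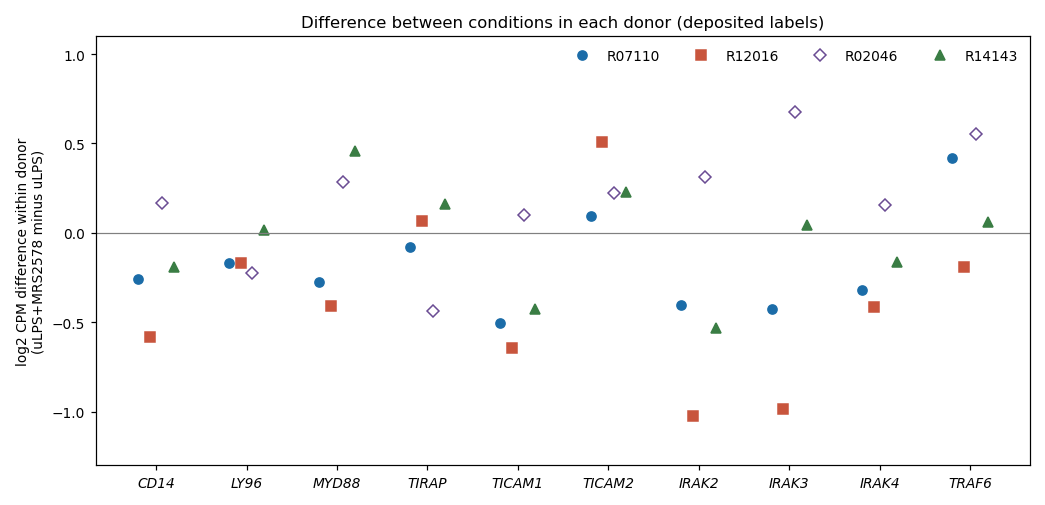
Difference in log2 CPM between uLPS+MRS2578 and uLPS within each donor, with 1 symbol per donor and open diamonds for R02046 as labelled. In R12016, IRAK2 reaches -1.03 and IRAK3 -0.99, while TICAM2 lies above 0 in every donor.

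The stretches of 250 bases upstream of the annotated starts of the 4 genes whose values are followed most closely are shown first: CD14, TICAM1 and IRAK2, which were lower in the same 3 donors, and TICAM2, which was higher in all 4. They are Mmul_10 sequence read at the RefSeq gene starts, 5′ to 3′ on the gene's strand, from chr6:138014254-138014503 (minus strand, CD14), chr19:4765028-4765277 (minus strand, TICAM1), chr2:141563167-141563416 (plus strand, IRAK2) and chr6:113138718-113138967 (minus strand, TICAM2). Capitals mark matches, on either strand, to the outer letters of NF-kB sites (GGG, 5 unspecified bases, CC), to TGGAAA (NFAT) and to TGANTCA (AP-1).
CD14: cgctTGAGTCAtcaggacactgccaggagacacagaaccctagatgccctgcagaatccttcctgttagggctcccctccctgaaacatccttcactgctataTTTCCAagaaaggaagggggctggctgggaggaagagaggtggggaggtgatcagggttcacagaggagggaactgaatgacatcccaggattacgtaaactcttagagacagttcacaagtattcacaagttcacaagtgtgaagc
TICAM1: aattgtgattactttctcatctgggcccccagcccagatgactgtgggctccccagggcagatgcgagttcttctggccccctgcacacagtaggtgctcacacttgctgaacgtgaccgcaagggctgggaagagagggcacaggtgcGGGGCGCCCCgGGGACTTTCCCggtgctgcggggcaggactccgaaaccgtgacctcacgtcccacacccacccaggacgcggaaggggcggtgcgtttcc
IRAK2: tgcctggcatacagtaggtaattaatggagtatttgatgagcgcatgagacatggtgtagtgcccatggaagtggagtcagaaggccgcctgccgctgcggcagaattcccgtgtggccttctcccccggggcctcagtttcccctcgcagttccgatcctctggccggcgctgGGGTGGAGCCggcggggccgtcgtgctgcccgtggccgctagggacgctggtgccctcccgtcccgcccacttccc
TICAM2: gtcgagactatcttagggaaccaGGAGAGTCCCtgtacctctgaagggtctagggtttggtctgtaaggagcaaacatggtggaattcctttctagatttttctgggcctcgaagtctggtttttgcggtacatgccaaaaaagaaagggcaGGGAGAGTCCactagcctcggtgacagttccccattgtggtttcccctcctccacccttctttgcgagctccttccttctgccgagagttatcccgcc

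In these windows CD14 held an AP-1 match (TGAGTCA) and an NFAT match (TTTCCA, the reverse complement of the searched letters), and no match to the NF-kB letters. TICAM1 held 3 NF-kB matches, of which 2 overlap in a single capital stretch and 1 (GGGGCGCCCC) lies next to it. IRAK2 held 1 (GGGTGGAGCC), and TICAM2 held 2 (GGAGAGTCCC and GGGAGAGTCC). The window of IRAK4, which was lower in the same 3 donors as CD14, TICAM1 and IRAK2, is not shown. It held no match to the NF-kB, NFAT or AP-1 letters. The NF-kB letters are loose: 54.7% of the 20782 windows of this length upstream of RefSeq genes hold them, and so do those of 5 of the 10 genes (TIRAP, TICAM1, TICAM2, IRAK2 and IRAK3). The NFAT letters occur in 17.1% of all windows and in those of CD14 and MYD88, and the AP-1 letters in 5.15% and in those of CD14 and IRAK3. The letters of an interferon-stimulated response element (GAAA, 2 unspecified bases, GAAA) are in 3.03% of all windows and in none of the 10. A match is a description of the letters and does not show that a factor binds.

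CD14 (ENSMMUG00000010007, chromosome 6, 138012823 to 138014253, minus strand, 2 exons) encodes the LPS-binding co-receptor on the surface of monocytes and macrophages. With uLPS it was at 6703 CPM in R07110, 7129 in R12016 and 7640 in R14143, and at 5470 in the R02046 library labelled uLPS. With uLPS+MRS2578 it was at 5604, 4764 and 6681 CPM in the same 3 donors and at 6146 in the R02046 library labelled uLPS+MRS2578. The values with MRS2578 were all below those with uLPS without R02046, and the groups overlapped with it. The mean was 6735.5 ± 926 CPM with uLPS and 5799 ± 818 with uLPS+MRS2578 (SD, n = 4). The edgeR log2 fold change of CD14 was -0.22 ± 0.21 as labelled (adjusted p = 0.907), -0.35 ± 0.19 without R02046 (adjusted p = 0.503) and -0.30 ± 0.14 with R02046 exchanged (adjusted p = 0.348), where the errors are SE, and none of these passed. As labelled it was -0.090 without R12016.

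LY96 (ENSMMUG00000003018, chromosome 8, 74492988 to 74530984, plus strand, 5 exons) encodes the secreted protein that sits on TLR4 and takes up the lipid. It was read with 98 to 317 counts per library. Its levels with uLPS were 9.65 CPM in R07110, 8.10 in R12016, 8.23 in R14143 and 10.5 in the library labelled uLPS of R02046, and with uLPS+MRS2578 they were 8.57, 7.20, 8.33 and 8.92. The groups overlapped, and the within-donor differences ran from -0.23 to 0.017 log2 CPM as labelled (SD 0.11). The fitted log2 fold change was -0.14 ± 0.14 as labelled, -0.11 ± 0.16 without R02046 and -0.033 ± 0.15 with it exchanged (SE).

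TLR4 itself, the receptor these proteins serve, ran from 344 to 579 CPM and was the lower of a pair with MRS2578 in the 3 donors other than R02046. Its edgeR log2 fold change was -0.21 ± 0.15 as labelled (adjusted p = 0.897), -0.38 ± 0.11 without R02046 (adjusted p = 0.2497) and -0.37 ± 0.089 with R02046 exchanged (SE; adjusted p = 0.106). As labelled it was -0.089 without R12016. With R02046 exchanged and R14143 left out TLR4 passed (-0.41, adjusted p = 0.039), beside 7.57% of all genes called. It did not pass with R07110 (adjusted p = 0.516) or R12016 (adjusted p = 0.359) left out instead (edgeR).

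MYD88 (ENSMMUG00000000995, chromosome 2, 93558391 to 93562235, plus strand, 5 exons), the adaptor used by most Toll-like receptors, differed in direction between donors. It was lower with MRS2578 in R07110 (82.1 to 68.0 CPM) and R12016 (68.9 to 51.8 CPM), and higher in R14143 (60.7 to 83.4 CPM) and in R02046 as labelled (51.1 to 62.3 CPM). The group means were 65.7 ± 13.2 and 66.4 ± 13.2 CPM (SD, n = 4), closer to each other than any donor's pair. Its log2 fold change was 0.014 ± 0.16 (SE) as labelled, -0.077 ± 0.18 without R02046 and -0.13 ± 0.15 with R02046 exchanged.

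TIRAP (ENSMMUG00000051458, chromosome 14, 119054358 to 119069541, plus strand, 8 exon blocks) links MYD88 to TLR4 at the membrane. Its exons overlap those of LOC114672435 on the opposite strand, and since the strand setting of the counting is not given in the sources used here, reads of both cannot be told apart. It was at 11.8, 14.2 and 10.97 CPM with uLPS and at 11.2, 14.9 and 12.3 CPM with uLPS+MRS2578 in R07110, R12016 and R14143, and at 10.3 and 7.60 CPM in the R02046 libraries labelled uLPS and uLPS+MRS2578. The differences within those 3 donors were 0.16 log2 CPM or less in size, and the -0.44 of R02046 as labelled stood outside them. Over all donors the fitted value was -0.062 ± 0.15 as labelled, 0.047 ± 0.14 without R02046 and 0.13 ± 0.14 with R02046 exchanged (SE).

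TICAM1 (ENSMMUG00000014163, chromosome 19, 4749435 to 4765027, minus strand, 2 exons) and TICAM2 (ENSMMUG00000015114, chromosome 6, 113115201 to 113138717, minus strand, 2 exons) encode the adaptors of the endosomal route. In R07110, R12016 and R14143 TICAM1 was lower and TICAM2 higher with MRS2578, while in R02046 as labelled both were higher, and neither gene passed the test. TICAM1 was at 58.3 CPM in R07110, 80.3 in R12016 and 72.4 in R14143 with uLPS, and at 41.1, 51.3 and 53.9 CPM with uLPS+MRS2578. In R02046 it was at 42.4 CPM in the library labelled uLPS and at 45.5 in that labelled uLPS+MRS2578. The 3 other donors did not overlap between conditions, and both R02046 libraries lay among the values with MRS2578. By edgeR the TICAM1 log2 fold change was -0.37 ± 0.14 as labelled (unadjusted p = 0.031, adjusted p = 0.878), -0.53 ± 0.10 without R02046 (adjusted p = 0.160) and -0.42 ± 0.11 with R02046 exchanged (SE; adjusted p = 0.122).

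TICAM2 was at 43.2 CPM in R07110, 45.2 in R12016, 39.9 in R14143 and 40.0 in the library labelled uLPS of R02046. With uLPS+MRS2578 it was at 46.1, 64.2 and 46.8 CPM in the same 3 donors and at 46.8 in the library labelled uLPS+MRS2578 of R02046. Every value with MRS2578 was above every value with uLPS, as the labels stand. Of all tested genes 1.08% had groups that did not overlap with the deposited labels, and TICAM2 was the 1 gene of the 10. By edgeR its log2 fold change was 0.26 ± 0.11 as labelled (unadjusted p = 0.042, adjusted p = 0.878), 0.28 ± 0.12 without R02046 (adjusted p = 0.395) and 0.16 ± 0.13 with R02046 exchanged (SE; adjusted p = 0.587). With R02046 exchanged the TICAM2 groups overlapped. TMED7, whose readthrough transcripts into TICAM2 are known in human, lies 9526 bases upstream. It has no row under this symbol in the counts, so it could not be analysed. Whether readthrough adds to the TICAM2 counts was not tested.

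**Figure D3:**
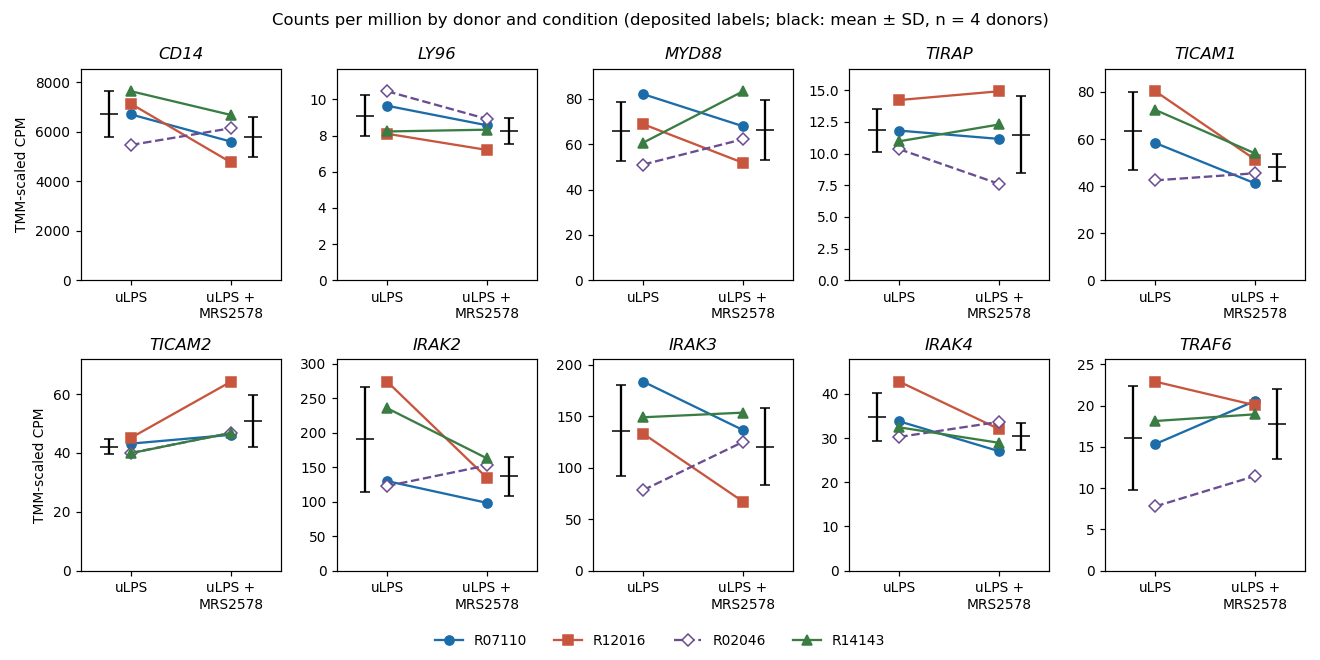
TMM-scaled CPM of each gene in uLPS and uLPS+MRS2578, with a line per donor, dashed and open for R02046 as labelled, and the mean ± SD of the 4 donors in black. In CD14, TICAM1, IRAK2 and IRAK4 the 3 solid lines fall and the dashed line rises, and in TICAM2 all 4 rise.

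IRAK4 (ENSMMUG00000000204, chromosome 11, 43207935 to 43240975, plus strand, 15 exon blocks) is the kinase that starts the signal after MYD88. Its exons overlap those of PUS7L and LOC107000838 on the opposite strand, with the same limit as for TIRAP. With uLPS it was at 33.8 CPM in R07110, 42.8 in R12016 and 32.4 in R14143, and with uLPS+MRS2578 at 27.0, 32.0 and 28.9. The R02046 libraries labelled uLPS and uLPS+MRS2578 were at 30.3 and 33.7 CPM. Without R02046 the conditions did not overlap, as for CD14, TICAM1 and TICAM2 (4 of 10, beside 11.1% of all genes). They also did not overlap with R02046 exchanged, where IRAK4 was the 1 gene of the 10 (2.97% of all genes), and they overlapped with the deposited labels. The edgeR estimates were -0.19 ± 0.13 on the log2 scale as labelled (adjusted p = 0.881), -0.30 ± 0.11 without R02046 (adjusted p = 0.336) and -0.27 ± 0.10 with R02046 exchanged (SE; adjusted p = 0.246).

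IRAK2 (ENSMMUG00000019932, chromosome 2, 141563417 to 141643033, plus strand, 13 exons) joins IRAK4 in the complex and is known to sustain the later phase of the response. Its log2 fold change was the most negative of the 10 under each of the 3 treatments of R02046 with all other donors kept. As labelled and without R12016 it was -0.21, less negative than that of TICAM1 (-0.28). With uLPS it was at 129.99 CPM in R07110, 274 in R12016 and 236 in R14143, and with uLPS+MRS2578 at 98.4, 135 and 163. The R02046 libraries labelled uLPS and uLPS+MRS2578 were at 123 and 153 CPM. The conditions overlapped under all 3 treatments of R02046, since R07110 with uLPS lay below other donors with MRS2578, although each of the 3 other donors was lower with MRS2578. The mean was 191 ± 75.9 CPM with uLPS and 137 ± 28.4 with uLPS+MRS2578 (SD, n = 4).

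For IRAK2 edgeR's quasi-likelihood fit gave a log2 fold change of -0.42 ± 0.20 as labelled (adjusted p = 0.878), -0.65 ± 0.14 without R02046 (adjusted p = 0.180) and -0.57 ± 0.12 with R02046 exchanged (SE; adjusted p = 0.093). With R02046 exchanged, IRAK2 and TICAM1 passed by edgeR's likelihood ratio test (adjusted p = 0.0056 and 0.029, beside 5.08% of all genes called) and by DESeq2's Wald test (adjusted p = 0.0036 and 0.034, beside 4.81%). As labelled, neither test called any of the 10, beside 0.0412% and 0.00824% of all genes.

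IRAK3 (ENSMMUG00000054816, chromosome 11, 65759640 to 65820208, plus strand, 12 exons), the brake on the MYD88 route, was at 184 CPM in R07110, 133 in R12016 and 149 in R14143 with uLPS, and at 137, 67.1 and 154 with uLPS+MRS2578. The R02046 libraries labelled uLPS and uLPS+MRS2578 were at 78.3 and 125 CPM. It was lower with MRS2578 in R07110 and R12016, nearly level in R14143 (0.043 log2 CPM) and higher in R02046 as labelled, and the groups overlapped. Its within-donor differences had an SD of 0.71 log2 CPM as labelled, the highest of the 10 under these labels. Its log2 fold change by edgeR was -0.18 ± 0.25 as labelled (adjusted p = 0.934), -0.46 ± 0.20 without R02046 (adjusted p = 0.392) and -0.51 ± 0.16 with R02046 exchanged (SE; adjusted p = 0.171). With R02046 exchanged and R14143 left out, IRAK3 (log2 fold change -0.70, adjusted p = 0.018) and IRAK2 (-0.58, adjusted p = 0.044) passed, beside 7.57% of all genes called. Neither passed with R07110 or R12016 left out instead. Without R12016 and with the deposited labels IRAK3 was at 0.095.

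TRAF6 (ENSMMUG00000018266, chromosome 14, 28949037 to 28970188, plus strand, 7 exons), the ubiquitin ligase on which the MYD88 route converges, was at 15.3 CPM in R07110, 22.9 in R12016 and 18.1 in R14143 with uLPS, and at 20.6, 20.03 and 18.9 with uLPS+MRS2578. Both R02046 libraries were the lowest of their groups, at 7.78 CPM in that labelled uLPS and 11.5 in that labelled uLPS+MRS2578. The groups overlapped, and the donor differences (0.42, -0.19, 0.063 and, in R02046 as labelled, 0.55 log2 CPM) did not share a sign. The fitted difference was 0.20 ± 0.16 log2 units as labelled, 0.10 ± 0.16 without R02046 and -0.022 ± 0.17 with R02046 exchanged (SE).

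**Figure D4:**
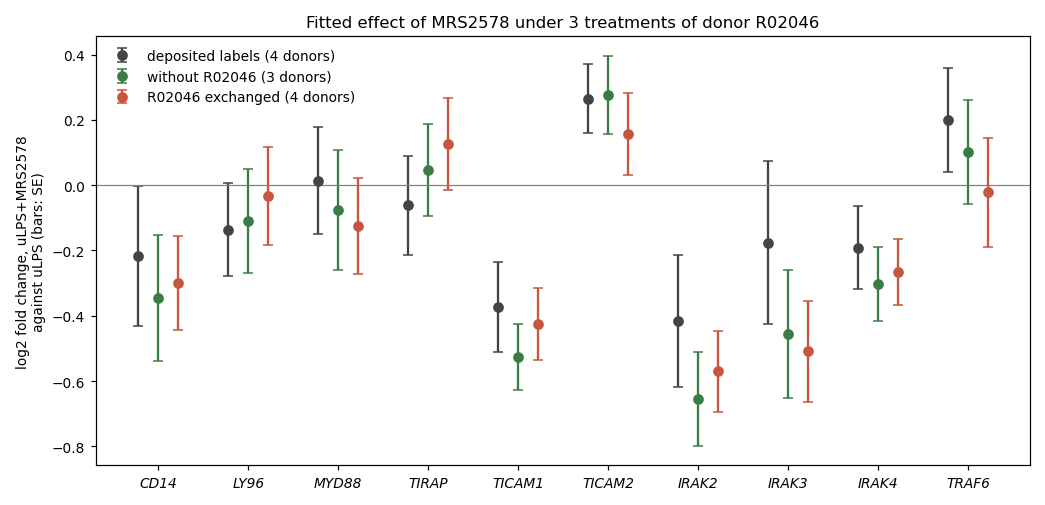
Fitted log2 fold change of uLPS+MRS2578 against uLPS (points) with its SE (bars) from edgeR, with the deposited labels (grey), without R02046 (green) and with R02046 exchanged (red). CD14, LY96, TICAM1, IRAK2, IRAK3 and IRAK4 lie below 0 and TICAM2 above 0 in all 3, while MYD88, TIRAP and TRAF6 change sign.

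Ratios between genes of the group compare them within a library, where scaling cancels. Of 8 pairs, 3 differed in the same direction in all 4 donors with the deposited labels. If signs were random, a pair would do so with a probability of 0.125, and pairs that share genes are not independent. The TICAM2 to TICAM1 ratio was higher with MRS2578 by 0.60 log2 units in R07110, 1.15 in R12016, 0.65 in R14143 and 0.13 in R02046 as labelled, with a mean of 0.63 ± 0.42 (SD, n = 4; exact two-sided sign-flip permutation p = 0.125, Benjamini-Hochberg adjusted 0.333). This is the smallest p that 4 donors can give. Without R02046 the mean was 0.80, and with R02046 exchanged it was 0.57 and 3 of 4 donors were higher (exact permutation p = 0.25).

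The TRAF6 to IRAK4 ratio was higher in 4 of 4 donors by 0.40 ± 0.24 log2 units, and the TICAM1 to MYD88 ratio was lower in 4 of 4 by a mean of -0.38 ± 0.33 (SD, n = 4; exact permutation p = 0.125 each). Without R02046 these means were 0.40 and -0.45, and with R02046 exchanged they were 0.20 and -0.29, each shared by 3 of 4 donors. The CD14 to LY96 and IRAK2 to IRAK4 ratios were lower in 3 of 4 donors as labelled, with means of -0.080 and -0.22 (-0.24 and -0.35 without R02046), and in 4 of 4 with R02046 exchanged, with means of -0.28 and -0.31 (exact permutation p = 0.125 each, adjusted 0.5). No ratio passed the threshold, which 4 donors cannot reach.

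**Figure D5:**
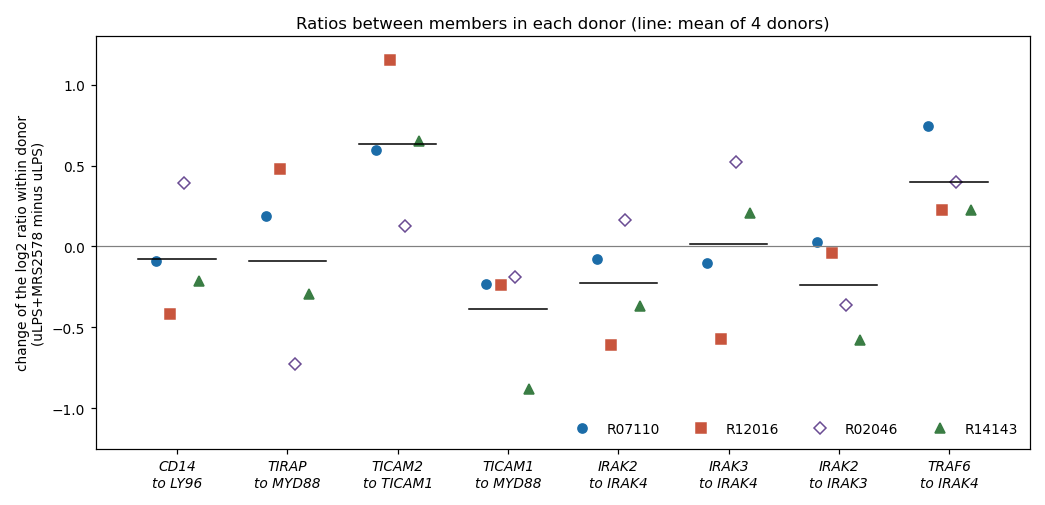
Change of the log2 ratio of 8 gene pairs between uLPS and uLPS+MRS2578 within each donor (symbols; open diamonds are R02046 as labelled), with the mean of the 4 donors as a black line. TICAM2 to TICAM1 and TRAF6 to IRAK4 lie above 0, and TICAM1 to MYD88 below 0, in every donor.

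A wider list of 34 genes of the LPS receptor pathway gave 30 that could be tested. LBP and PELI2 were below the count filter, and TMED7 and SIGIRR had no row under these symbols in the tables. By edgeR's quasi-likelihood test none of the 30 was called under any of the 3 treatments of R02046. With the deposited labels 22 were lower and 8 higher with MRS2578, with a median log2 fold change of -0.039, and 0 of 30 had an unadjusted p under 0.05 beside 5.14% of all genes. Without R02046 21 were lower and 9 higher (median -0.078), and 7 of the lower and 2 of the higher had an unadjusted p under 0.05, beside 13.6% of all genes. With R02046 exchanged 21 were lower and 9 higher (median -0.082). Of these, 9 of the lower and 3 of the higher had an unadjusted p under 0.05, beside 16.4% of all genes (edgeR). In the same order, 52.1%, 50.5% and 49.8% of all tested genes were lower, with medians of -0.0097, -0.0035 and 0.0012.

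The genes of the TRIF route after TICAM1 (TRAF3, RIPK1, TBK1, IKBKE and IRF3) were lower in 4 of 5 cases with the deposited labels and in 5 of 5 without R02046 and with R02046 exchanged, beside 52.1%, 50.5% and 49.8% of all genes. Their medians were -0.15, -0.26 and -0.24, and none was called by the quasi-likelihood test. IKBKE lay within its SE of 0 in each case, at 0.062 ± 0.14, -0.0091 ± 0.15 and -0.073 ± 0.13. Of 4 dampers tested, TNFAIP3 was lower under all 3. In the same order TOLLIP was nearly level, at -0.0036 ± 0.089, -0.011 ± 0.099 and -0.012 ± 0.083 (SE). CYLD was at 0.12 ± 0.092, 0.085 ± 0.098 and 0.0073 ± 0.097. SARM1 was at -0.72 ± 0.59, -0.77 ± 0.72 and -0.49 ± 0.60, with means of only 0.65 CPM with uLPS and 0.38 with uLPS+MRS2578. Among the genes of the wider list with a mean of at least 1 CPM in each condition, the 3 most negative as labelled and with R02046 exchanged were MAP3K8, a kinase upstream of ERK, PELI1, a ubiquitin ligase acting with IRAKs, and TNFAIP3 (A20), which removes ubiquitin chains from TRAF6. MAP3K8 was at 25.6 ± 13.5 CPM with uLPS and 16.7 ± 3.60 with uLPS+MRS2578, PELI1 at 281 ± 157 and 187 ± 48.0 CPM, and TNFAIP3 at 376 ± 145 and 288 ± 34.98 CPM (SD, n = 4, as labelled). Their log2 fold changes were -0.48, -0.42 and -0.31 with the deposited labels, -0.73 (adjusted p = 0.166), -0.67 (adjusted p = 0.180) and -0.57 (adjusted p = 0.166) without R02046, and -0.66 (adjusted p = 0.089), -0.59 (adjusted p = 0.086) and -0.55 (adjusted p = 0.057) with R02046 exchanged (edgeR). All 3 were lower in R07110, R12016 and R14143 and higher in R02046 as labelled, as were CD14 and 13.2% of all genes. A ranking by fold change with R02046 exchanged favours this pattern, so it is no separate observation about these 3. With R02046 exchanged, 7 of the 30 passed by edgeR's likelihood ratio test (beside 5.08% of all genes) and 7 by DESeq2's Wald test (beside 4.81%): these 3, TLR4, TAB2 and PIK3AP1, all lower, and HSP90B1, which was higher. TAB2 and PIK3AP1 are named for this after their values were seen.

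At the same minimum level, the largest positive values with the deposited labels belonged to PELI3 (0.73), CD180 (0.42), a TLR4 relative that dampens LPS responses in macrophages, and HSP90B1 (0.33), the chaperone that folds Toll-like receptors. With R02046 exchanged they belonged to HSP90B1 (0.50, adjusted p = 0.103), CD180 (0.47, adjusted p = 0.207) and IKBKG (0.22, adjusted p = 0.271), the regulatory subunit of the IkB kinase complex (edgeR). PELI3 was low, at means of 3.09 CPM with uLPS and 5.30 with uLPS+MRS2578 as labelled. Its log2 fold change was 0.73 ± 0.34 as labelled and 0.21 ± 0.39 with R02046 exchanged (SE, adjusted p = 0.841 when exchanged, edgeR). HSP90B1 was at 1230.3 ± 451 CPM with uLPS and 1480 ± 32.8 with uLPS+MRS2578 (SD, n = 4, as labelled), higher in R07110, R12016 and R14143 and lower in R02046 as labelled. Without R02046 the log2 fold changes were 0.55 for HSP90B1 (adjusted p = 0.214), 0.59 for CD180 (adjusted p = 0.270), 0.53 for PELI3 (adjusted p = 0.543) and 0.24 for IKBKG (adjusted p = 0.385, edgeR).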

How the data were processed

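The authors sequenced RNA of 8 microglia libraries (oligo(dT) selection, directional kit) and deposited whole-number counts per Ensembl gene, without normalization. The study's methods name fastp, STAR, Mmul_10, SAMtools and HTSeq with unique reads within exons, whereas the submitters' processing notes name Trimmomatic (0.30), TopHat2 (2.0.14), SAMtools (1.3) and HTSeq (0.6.1p1), so the pipeline that made the counts is uncertain. Annotation release and strand setting are not given in the sources used here. M-CSF is given as 10 ng/mL in the labels and 20 ng/mL in the methods.

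Genes were filtered with filterByExpr (minimum count 10), which kept 12131 genes and all 10 described here. Counts were scaled by TMM and tested in R (4.3.3) with edgeR's (4.0.16) quasi-likelihood test on all filtered genes, blocked by donor, with p-values adjusted after Benjamini and Hochberg. The SE is that implied by the test. Log2 CPM used a prior count of 2. The block rests on both libraries of a donor coming from 1 animal, and their deviations from the condition means correlated at 0.46 to 0.60. DESeq2 (1.42.0) was an alternative. The script was tested on simulated data. No 2 libraries were duplicates (chi-square per degree of freedom at least 19.6). A count of 0 allows up to 0.0915 to 0.325 CPM, for counting error only. Exon and coding lengths and upstream windows come from RefSeq's Mmul_10 annotation. The genes named are the 10, TLR4 and, from the wider list, any called gene and the 3 largest rises and falls among genes with both condition means at 1 CPM or more. The genes and lists were chosen with earlier results of these data known. Columns of the authors' comparisons were not used.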

Additional observations from a re-analysis of the deposited data

Results flagged for a closer look

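In 41 groups of 4 values the highest or lowest value was set against the others by Dixon's test, which chance passes in about 1 of 20 groups, and 2 passed. TICAM2 with uLPS+MRS2578 was at 64.2 CPM in R12016, far above the 46.1 to 46.8 CPM of the other donors. The log2 ratio of TICAM1 to MYD88 changed by -0.88 in R14143, against -0.24 to -0.19 in the other donors.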

How the results depend on the processing

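With the deposited labels the number of genes called was 0 under most alternatives, 1 by DESeq2's Wald test and 5 by edgeR's likelihood ratio test, and it was 75 with R02046 exchanged. Without the replicate block no gene was called, and 250 had an unadjusted p under 0.05 against 624 with it. Leaving out any donor left 0 genes. No gene of the 10 and none of the wider list was called in any of these fits.

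With R02046 exchanged (its combinations with other settings were added after the data were seen), 39 genes were called by edgeR's earlier quasi-likelihood estimation, 583 by DESeq2's Wald test, 616 by the likelihood ratio test, 32 with at least 10 counts in every library and 0 without the replicate block. Leaving out 1 further donor gave 0 (R07110), 5 (R12016) and 918 genes (R14143). Among the 10, 2 were called by either other test and 0 to 2 with a donor left out, and of the wider list 7 and 0 to 6.

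Signs of small log2 fold changes depended on R02046: MYD88 was at -0.13, TIRAP at 0.13 and TRAF6 at -0.022 with it exchanged. Leaving out a donor gave -0.14 to 0.16 for MYD88, -0.15 to 0.047 for TIRAP and -0.46 to 0.095 for IRAK3 with the deposited labels, and -0.054 to 0.022 for LY96 and -0.20 to 0.062 for TRAF6 with R02046 exchanged, where TRAF6 was at 0.0099 without the block. Without R02046 MYD88 was at -0.077 and TIRAP at 0.047, and MYD88 was at -0.14 without R14143. LY96 exchanged was at 0.022 without R07110 and 0.010 without R12016. Among ratios, TIRAP to MYD88 changed by 0.27 and IRAK3 to IRAK4 by -0.25 with R02046 exchanged. With a donor left out the changes ran from -0.24 to 0.032 for CD14 to LY96, -0.28 to 0.12 for TIRAP to MYD88 and -0.16 to 0.21 for IRAK3 to IRAK4. The cause was not tested. With 4 donors the limit is their number and the label of R02046, and the lowest counts behind a value are those of TRAF6, TIRAP and LY96, at 73, 97 and 98.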
